A study of Mus musculus with 16 samples.

Results

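Of 5762 pixels that the authors classified in 5C contact maps of 7 mouse loci, 443 met a looping threshold in neural progenitor cells (NPCs) and in embryonic stem (ES) cells kept in 2i, but not in ES cells kept in serum. A pixel is a pair of 4 kb bins, and each carries a deposited interaction score per library. The pixels were chosen by these scores alone, as those with a score of 26 or more in both NPC libraries and both 2i libraries and below 26 in both serum libraries. The score equalled −10 times log2 of the authors' deposited p-value for the same bin pair, so that 26 stands for a p of 0.165, a lenient cut that 14.7% to 15.7% of all 191184 scored bin pairs passed in any 1 library.

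NPCs came from the brains of newborn (P1) 129SvJae x C57BL/6 mice with a Sox2-eGFP allele and were grown as neurospheres and then plated. The ES cells were the male V6.5 line, also 129SvJae x C57BL/6, grown either in serum-free 2i medium with LIF and the kinase inhibitors CHIR99021 and PD0325901, or in standard medium with serum and LIF. Each of these groups had 2 libraries, and all were made from HindIII fragments by 5C, which amplifies ligation products between chosen fragments with alternating forward and reverse primers. NPCs of the same kind, plated more sparsely and treated with siRNA against YY1 or with control siRNA, gave 2 libraries each from an in situ protocol, covering only the Sox2 and Klf4 loci. CTCF ChIP-seq had 1 library per untreated condition. The labels give no separate cultures behind the libraries of 1 group, so every p-value measures the spread between these libraries only, and cell type, strain stock and medium cannot be told apart between NPCs and ES cells.

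Chromatin loops bring distant DNA segments together, and many are held where cohesin stops at bound CTCF, a zinc-finger protein. Other loops join enhancers to promoters, and YY1, another zinc-finger protein that binds such elements, can bridge them. The medium 2i holds ES cells in a uniform ground state, whereas cells in serum vary more in their expression of pluripotency factors. Oct4, Sox2, Nanog and Klf4 are transcription factors of pluripotent cells, Sox2 is also used by neural progenitors, Nestin is an intermediate filament gene of neural progenitors, and Olig1 and Olig2 are factors of the oligodendrocyte and motor neuron lineages.

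Total 5C counts were 14698138 to 14887963 in NPC, 11784821 to 14201950 in 2i and 25791222 to 26533530 in serum libraries, and the share of counts between loci was lowest in 2i replicate 1. The YY1 siRNA libraries held 4419309 and 12993781 counts and the control siRNA libraries 5792078 and 6251316. Counts are PCR reads without molecular identifiers. The labels name a bin file of 16 kb bins at 4 kb steps, so neighbouring pixels may share reads, and touching pixels were joined and treated as 1 loop.

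The Oct4 locus on chromosome 17 held 209 of the 443 pixels, and the Olig1-Olig2 locus on chromosome 16 held 135. Nestin and Sox2, both on chromosome 3, held 51 and 44, Nanog on chromosome 6 held 4, and the Klf4 locus and the gene desert held none. Relative to the classified pixels of each locus, Olig1-Olig2 came first with 15.5% of 873 pixels, ahead of Oct4 with 8.77% of 2382, Nestin with 6.19% of 824, Sox2 with 5.06% of 869 and Nanog with 1.09% of 368. None of the 430 classified pixels of the Klf4 locus met the rule, although 107 of its 20499 scored bin pairs did. Over all loci 2253 scored bin pairs met the rule (1.18%), of which 443 were in the authors' table of classified pixels. The authors' own label was the 2i and NPC class for 422 of the 443, the NPC only class for 16 and the 2i only class for 5, in the authors' deposited table. Their 2i and NPC class held 530 pixels, and each of the other 108 had at least 1 serum score of 26 or more.

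The scores given here are those that chose the pixels, so their separation is a description. It also holds only for the authors' classified pixels, 443 of the 2253 scored bin pairs that met the rule. Median scores were 51.9 and 47.5 in NPC libraries, 50.6 and 52.9 in 2i libraries, and 3.56 and 3.17 in serum libraries. In 224 of the pixels both serum scores were below 5. Near the cut, 6 pixels had a lowest NPC or 2i score below 30 and 37 had a serum score above 22, and the lowest NPC or 2i score of all was 26.7. Just outside it, 102 pixels missed the rule in 1 library, by a serum score in 60 of them, and the closest had a score of 25.9 in NPC or 2i or 26.1 in serum.

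**Figure D1:**
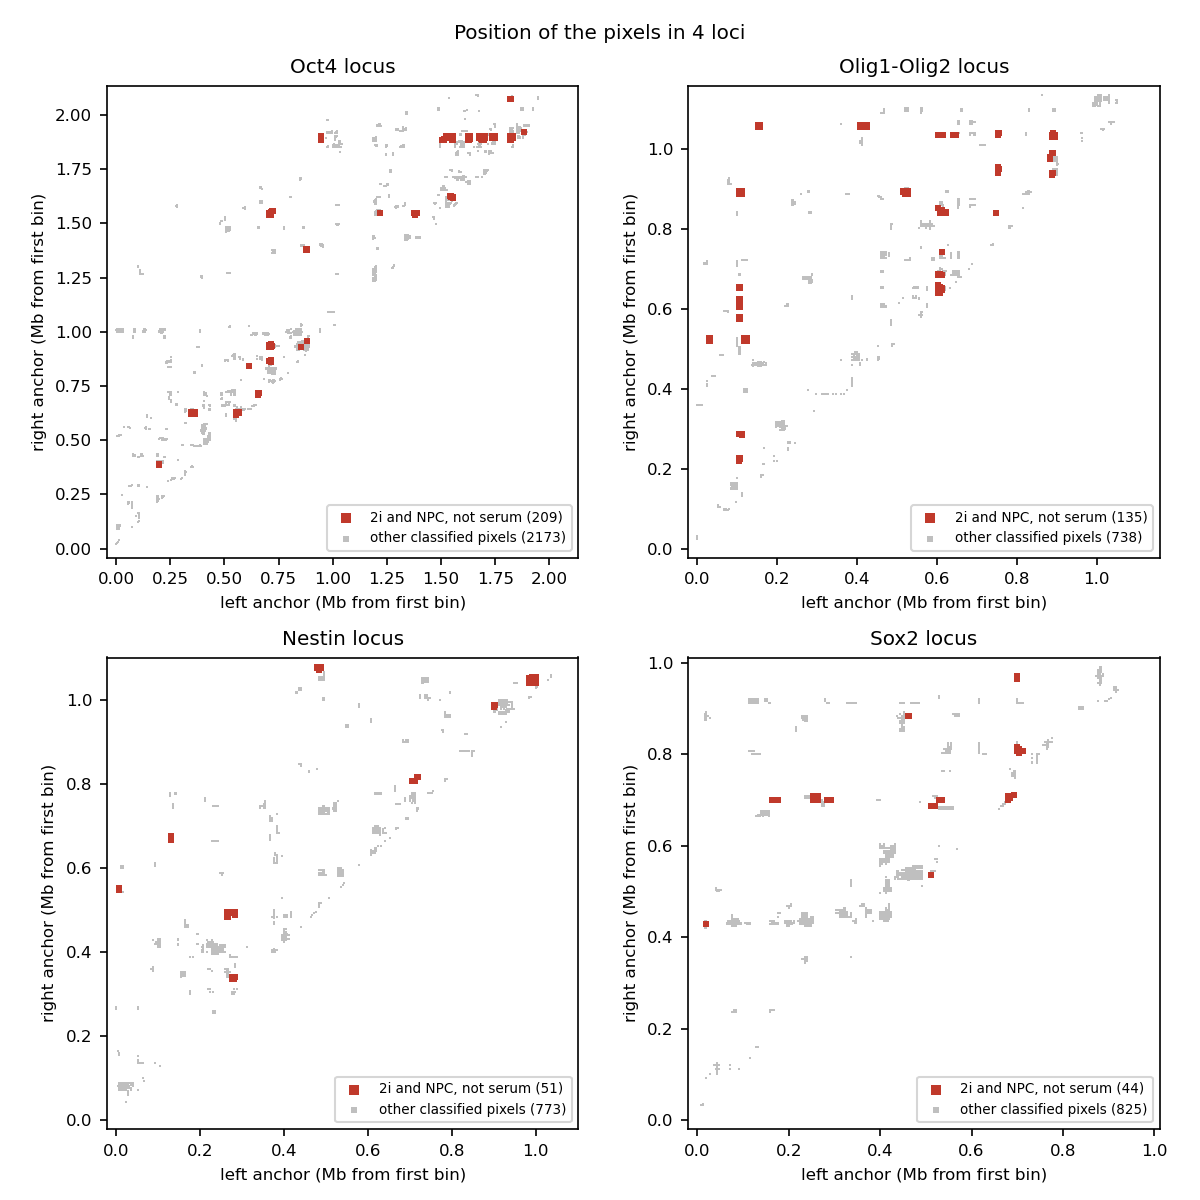
Left anchor against right anchor of every classified pixel in 4 loci, in Mb from the first bin of the locus, with the pixels seen in NPC and 2i but not serum in red and the other classified pixels in grey. The red pixels line up in rows and columns, which are bins that anchor several loops, such as the row near the top of the Oct4 panel that holds 126 of its 209 pixels.

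Touching pixels formed 77 loops, 26 each at Oct4 and Olig1-Olig2, 12 each at Nestin and Sox2 and 1 at Nanog. A loop held a median of 4 pixels and at most 37, and 12 loops were a single pixel. The 13 loops of 10 or more pixels held 200 of the 443. Anchors lay a median of 224 kb apart (range 20 to 956 kb), against 148 kb for all classified pixels and 88 kb for the 1537 pixels at or above 26 in all 6 libraries. Most other sets had longer medians, with 240 kb for NPC only, 300 kb for 2i only and 398 kb for serum only. The median was 270 kb for serum and NPC, and 104 kb for 2i and serum. By locus the median was 372 kb at Olig1-Olig2, 344 kb at Nanog, 266 kb at Sox2, 216 kb at Oct4 and 104 kb at Nestin.

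The loops shared anchors. Runs of adjacent bins in which each bin anchored at least 3 loops are called hubs here, a definition chosen after the map of pixels had been seen. The 13 hubs took part in 353 of the 443 pixels, or 79.7%. By the same definition the share was 66.6% for pixels seen in NPC only, 58.5% for 2i only, 45.7% for serum only, 39.2% for pixels seen in all conditions, 36.1% for 2i and serum and 11.5% for serum and NPC. With hubs of at least 2 or 4 loops per bin the share was 94.1% or 60.0%. No test was made of these differences, and pixels of a hub share the reads of its fragments.

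The largest, Oct4 hub 4, was a 24 kb stretch at chr17:36314392-36338391 (mm9) that anchored 126 pixels in 9 loops, 60.3% of the Oct4 pixels. Its 3 biggest loops reached leftward to chr17:36106392-36138391 (loop 22, 37 pixels), chr17:36246392-36266391 (loop 24, 25 pixels) and chr17:36054392-36066391 (loop 21, 17 pixels). Oct4 hub 3 at chr17:35970392-35990391 anchored 36 pixels. At Sox2, 35 of the 44 pixels had an anchor in hub 1, chr3:34808880-34820879. At Olig1-Olig2, hub 3 at chr16:91218613-91234612 anchored 36 pixels, hub 1 at chr16:90718613-90726612 anchored 33, and hub 4 at chr16:91502613-91514612 anchored 32. Nestin had 2 small hubs of 7 and 5 pixels. Genes at the anchors are left out, as no annotation in mm9 coordinates was used.

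Few primer pairs joined the anchors of each loop. Of the 77 loops, 70 had a counted forward-reverse primer pair joining their anchors. Their median was 2 such pairs, and 29 loops had a single one. The other 7 loops had none and were still scored, so the scores do not rest on these pairs alone. In 53 loops an anchor overlapped only 1 restriction fragment with a primer. Scaled to 1000000 counts within the locus (CPM), both serum libraries lay below all 4 NPC and 2i libraries in 43 of the 70 loops, a share to be read beside the 17.7% of all 15190 tested 16 kb window pairs for which the same held. The rule used this contrast, so nothing is drawn from that count. The median ratio of NPC and 2i to serum was 2.05, and 59 loops had a ratio above 1.

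Scores and unadjusted counts did not always point the same way. Oct4 loop 24 had 1 primer pair joining its anchors. It gave 777 and 609 raw counts in NPC, 1237 and 949 in 2i, and 449 and 554 in the more deeply sequenced serum libraries. The mean scores of loop 24 were 69.4 and 48.6 in NPC, 84.3 and 76.5 in 2i, and 1.13 and 1.67 in serum. So for this primer pair and these scores all NPC and 2i libraries lay above serum once depth was taken into account (ratio of CPM 3.86). In the whole-table fit the 5 tested window pairs of the loop ran from -0.88 to 2.01 in log2 fold change of NPC and 2i over serum. Of these, 1 was higher and 1 lower at an edgeR adjusted p below 0.05. Sox2 loop 3 joined chr3:34360880-34376879 with hub 1 and had mean scores of 43.0 and 46.8 in NPC, 44.5 and 50.9 in 2i, and 0.558 and 0.971 in serum. Its 8 primer pairs summed to 97 and 123 counts in NPC, 140 and 211 in 2i, and 364 and 368 in serum, so in CPM the mean of NPC and 2i came to 0.659 times that of serum. The direction turned with the scaling and the window: in the fit with a distance trend, the 16 kb window pair with most of its pixels (4 of 10) had a log2 fold change of NPC and 2i over serum of 0.83 (edgeR adjusted p = 0.052), and the 4 pairs of the loop ran from -0.24 to 0.83. Olig1-Olig2 loop 16, between chr16:91218613-91242612 and chr16:91454613-91470612, had a ratio of 0.923 over 9 primer pairs. Here too the fit gave the other direction, with a log2 fold change of NPC and 2i over serum of 0.83 (edgeR adjusted p = 0.0059) in the window pair that holds 8 of its 13 pixels. Its 4 tested pairs ran from -0.91 to 0.83, with 2 higher and 0 lower at an adjusted p below 0.05. The rule used that contrast, so these values are descriptions.

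Sox2 loop 9 was the shortest of the named Sox2 loops at 20 to 28 kb. The single primer pair whose fragments overlap its anchors gave 1868 and 1607 counts in NPC, 790 and 934 in 2i, and 199 and 183 in serum, and the 3 groups did not overlap. In CPM these were 904 and 717 in NPC, 549 and 564 in 2i, and 64.4 and 64.6 in serum. The fragments of that pair, chr3:34794731-34815517 and chr3:34815519-34818355, abut each other, which was so for the main primer pair of no other loop, and the longer of them overlaps both anchors. By fragment midpoint this primer pair belongs to another pair of windows, starting at 34796880 and 34812880, that holds a pixel of Sox2 loop 10. In the window pair with 4 of the 5 pixels of loop 9 the log2 fold change of NPC and 2i over serum was 0.68 (edgeR adjusted p = 0.021), below the 1.90 of Sox2 loop 11 (adjusted p = 0.0010).

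In the whole-table fit, 158 pairs of 16 kb windows held at least 1 of the pixels, and 134 of them passed the filter on low counts. For NPC and 2i against serum 67 of the 134 were higher and 5 lower with an edgeR adjusted p below 0.05, beside 12.5% and 14.8% of all 15190 pairs in those directions and 27.3% in either. For 2i against serum 53 were higher and 1 lower (10.2% and 11.6% of all pairs), and for NPC against serum 58 were higher and 9 lower (14% and 15.2%). These comparisons share the serum libraries, and the rule used their contrast, so the counts describe the choice of pixels. Without serum replicate 1 or 2 the first count fell to 39 higher and 2 lower in each case. In 32 kb windows the lower calls were more numerous, with 46 higher and 16 lower of 95 pairs for NPC and 2i against serum, 34 and 10 for 2i against serum, and 44 and 20 for NPC against serum. The filter on low counts can pass a pair through the group in which it is high.

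At several hubs the restriction fragments had fewer contacts in serum, within the locus and with other loci alike. Oct4 hub 4 overlapped a single primer-bearing fragment, chr17:36318067-36330546 (12480 bp), the only one under the hub anchors of its 126 pixels. If the scores draw on 16 kb bins, fragments beside the hub enter them too. Scaled to 1000000 fragment ends within the locus this fragment had 1640.5 and 1732 contacts in NPC, 2526 and 2231 in 2i, and 664 and 817 in serum. Its contacts with the other loci, scaled to 1000000 counts between loci, were 1390.5 and 1568 in NPC, 1633 and 1337.5 in 2i, and 512 and 613 in serum. Serum lay below the other 4 libraries in both kinds of contact, by 2.74 times within the locus and 2.64 times between loci.

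The main fragment of Oct4 hub 3, chr17:35977606-35988580, stood further apart. It had 2448 and 2384 contacts within the locus on that scale in NPC, 2999.6 and 2977 in 2i, and 397 and 444 in serum, a ratio of 6.43. Between loci the ratio was 6.16. At Sox2 hub 1 the 3 fragments differed from one another. The short fragment chr3:34815519-34818355 had 1575 and 1533 in NPC, 1236 and 1623 in 2i, and 347 and 433 in serum, while the neighbouring chr3:34794731-34815517 had 1753 and 1519 in NPC, 2164 and 2262 in 2i, and 1700.3 and 1923 in serum, where the groups overlapped.

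Over the 12 hubs with a primer-bearing fragment, the fragment covering most of the hub was lower in both serum libraries than in all 4 others at 7 hubs within the locus and at 6 between loci. The ratio of NPC and 2i to serum within the locus had a median of 1.30 and ran from 0.697 at Olig1-Olig2 hub 5 to 6.43. Of all 1548 fragments with a mean of at least 10 within-locus counts, 30.7% were lowest in both serum libraries, and between loci it was 40% of 1549. At the hubs the shares were 65.5% and 58.6% of 29 fragments, and at all anchors of the pixels 48.3% of 209 and 49.5% of 210. At least 1 anchor lay at such a fragment in 88.0% of the 443 pixels, against 67.1% of all classified pixels, and both anchors did in 39.5%, against 18.5%. Hubs and anchors follow from the rule, which used the contrast with serum in these same libraries, so these shares are descriptions. Fragments of the same hub are neighbours and are not independent of one another. How far the yield of single fragments goes into the scores was not tested.

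**Figure D2:**
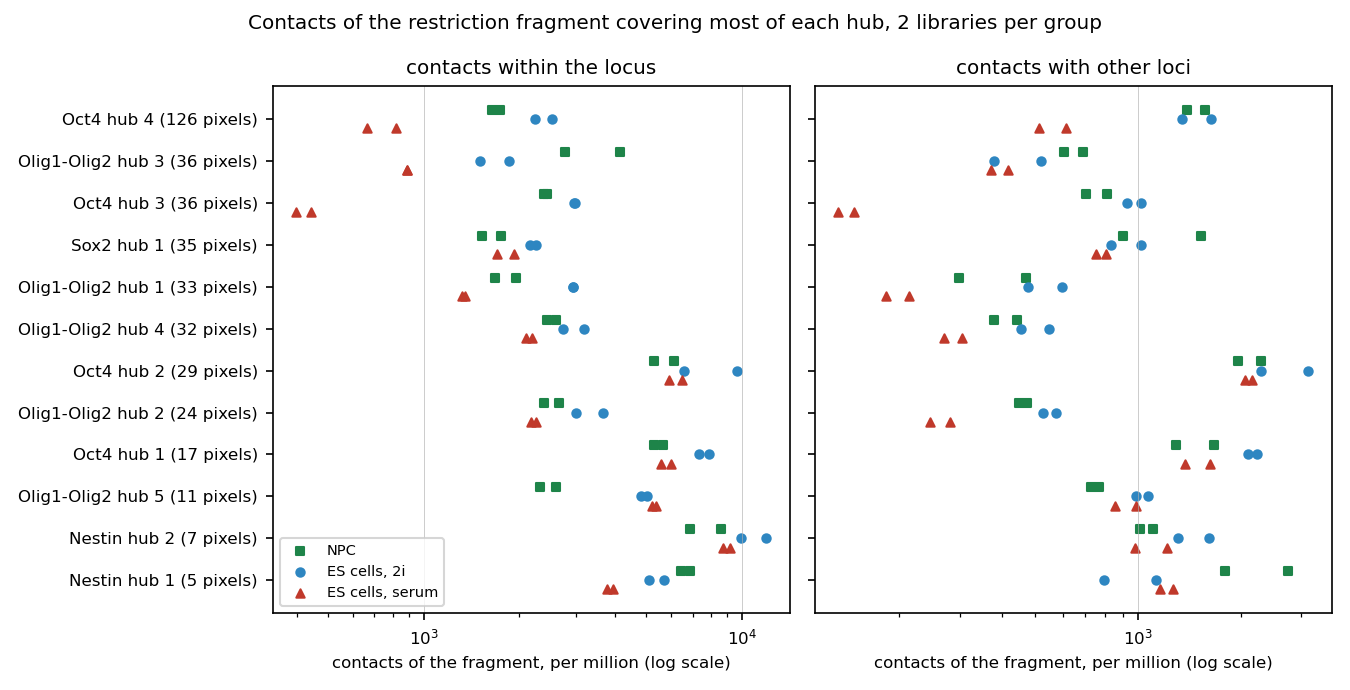
Contacts of the restriction fragment that covers most of each hub, within its locus (left, scaled to 1000000 fragment ends of the locus) and with other loci (right, scaled to 1000000 counts between loci), on log axes, with 2 points per group. Serum points lie left of all others at Oct4 hub 3 and hub 4 in both panels, whereas at Oct4 hubs 1 and 2 and Nestin hub 2 the groups overlap.

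CTCF was measured once per condition, so the peak lists carry no replicate check. In the NPC list 35.0% of the 443 pixels had a peak at 1 or both anchors, in the 2i list 49.7% and in the serum list 48.5%. For all classified pixels the shares were 26.4%, 45.2% and 45.0%. Peaks at both anchors were found for 4.29% (NPC list), 11.5% (2i list) and 11.5% (serum list) of the pixels, against 2.71%, 8.38% and 8.16% of all classified pixels. For pixels seen in all conditions these were 4.94%, 12.2% and 11.9%. The NPC list was the shortest, with 28860 peaks against 56138 in the 2i list and 50185 in the serum list.

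No anchor bin had CTCF peaks in the pattern of the loops, which was almost absent from these loci. The 443 pixels used 230 anchor bins, of which 167 held no peak, 39 held peaks of all 3 lists and 15 held peaks of the 2i and serum lists only. None held peaks of the NPC and 2i lists without serum, a pattern found in 1 of all 1807 bins of these loci. It is too rare for its absence to set these pixels apart. Single lists accounted for 5 bins with 2i, 1 with NPC and 2 with serum, and 1 bin had NPC and serum. Of the 77 loops, 28 had no peak at either anchor, 28 at 1 anchor and 21 at both, and in 14 loops both anchors had a bin with peaks of all 3 lists.

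The loci differed in CTCF content. At Sox2 1 of 44 pixels had a peak of the 2i list at an anchor (2.27%), against 27.2% of the classified Sox2 pixels, and 1 had a peak of the NPC list and 2 of the serum list. Of the 44, 35 shared hub 1, which held no peak of any list, so they are not separate observations. At Olig1-Olig2 the share in the 2i list was 25.2%, against 29.8% of that locus. At Nestin it was 74.5%, against 50.7%, and at Oct4 69.4%, against 58.2%. None of the anchors of Sox2 loops 3, 9 and 11 held a peak of any list. With anchors widened to 12 kb, 76.3% of all 443 pixels had a peak of the 2i list, against 77.1% of all classified pixels, so the order of these 2i shares turned with the anchor width. The serum list gave 75.8% against 76.0% at that width, and the NPC list 65.9% against 53.9%.

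**Figure D3:**
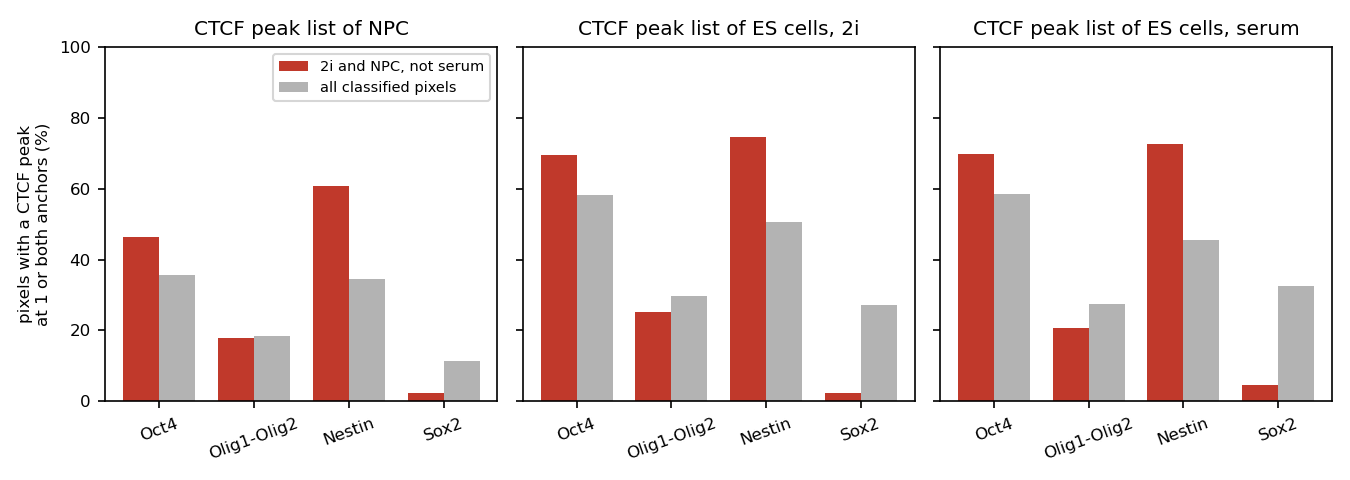
Share of pixels with a CTCF peak at 1 or both anchors, in percent, by locus and by the peak list of each condition (1 library per list, no error), for the pixels seen in NPC and 2i but not serum (red) and all classified pixels (grey). In the 2i list red stands above grey at Nestin (74.5% against 50.7%) and far below it at Sox2 (2.27% against 27.2%), and the other lists show the same order at those loci. At Sox2, 35 of the red pixels share hub 1.

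At the largest hub the CTCF peaks were present in serum as well. Oct4 hub 4 held a peak at chr17:36330600-36330848 in the NPC list (fold enrichment 18.1, the authors' value), with counterparts at chr17:36330571-36330812 in 2i (22.6) and chr17:36330552-36330860 in serum (29.6). A second peak of the hub, at chr17:36335303-36335631 in 2i and chr17:36335305-36335638 in serum (fold enrichment 38.3), had no counterpart in the NPC list. The left anchor of loop 22 held 2 strong peaks of all 3 lists, between percentiles 92.6 and 99.5 of their own list by fold enrichment. At Olig1-Olig2 hub 3 the peak at chr16:91225012-91225266 in the NPC list was at percentile 91.1 of that list, with 31.0 for its 2i counterpart and 34.8 for the serum one. The Nestin anchor peak at chr3:87774100-87774306 in NPC was at percentile 91.9, with 33.5 for its 2i counterpart and 92.6 for the serum one.

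NPC and 2i cells share the pixels by rule, and the pixels were compared between them. In 78 of the 443 pixels both NPC scores were above both 2i scores, in 149 both were below, and in 216 they overlapped. Both are smaller shares than the 29.5% above and 37.3% below of all classified pixels, where the rule kept only pixels that pass in both groups. At Oct4 NPC scores were below in 106 of 209 pixels and above in 22, without a share of all classified Oct4 pixels to set beside them. In counts, NPC was higher than 2i in 17 of the 134 tested window pairs and lower in 23 (edgeR's quasi-likelihood test, adjusted p below 0.05), which is 29.9% together. Over all 15190 pairs 17.8% passed, with 9.04% higher and 8.77% lower. The median log2 fold change was -0.06 for the 134 pairs and 0.04 for all pairs.

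The calls differed in direction between loci. At Oct4 0 of 60 window pairs rose and 18 fell in NPC, among 368 that rose and 454 that fell of 6038 in that locus. At Olig1-Olig2 12 of 36 rose and 4 fell, among 283 and 192 of 2391. At Sox2 4 of 21 rose and 1 fell (23.8% together), among 299 and 264 of 1888 in that locus (29.8%). At Nestin 1 of 15 rose (6.67%), among 141 that rose and 135 that fell of 2056 (13.4%), and neither Nanog pair passed. Without 2i replicate 1 the 134 pairs gave 15 rises and 9 falls, with 7 falls at Oct4, and in 8 kb windows Oct4 had 2 falls among 40 pairs. With plain scaling, DESeq2, a replicate block, 32 kb windows or without NPC replicate 1, 1 to 3 Oct4 pairs rose. The difference between loci was not itself tested.

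Single hubs carried most of these calls. Of 34 window pairs touching Oct4 hub 4, 17 fell in NPC and none rose, while of 14 touching Olig1-Olig2 hub 3, 10 rose and none fell. Pairs of a hub share its window, so they are not independent of one another. The Olig1-Olig2 pair of windows starting at 91222613 and 91254613, 32 kb apart, had 21268 and 21402 counts in NPC, 2786 and 3165 in 2i, and 3547 and 3698 in serum. NPC stood far above both ES groups there (log2 fold change over 2i 2.62, SE 0.19, edgeR adjusted p = 1.4e-06).

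A loop can span several window pairs, and each named loop is given by the pair that holds most of its pixels. In the Oct4 locus, the window pair with 8 of the 17 pixels of loop 21, starting at 36046392 and 36318392, had 45 and 53 counts in NPC, 260 and 260 in 2i, and 32 and 48 in serum. NPC was below 2i by a log2 fold change of -1.65 (SE 0.32, edgeR adjusted p = 0.0023), and 4 of the 5 tested pairs of the loop fell. The pair with 13 of the 37 pixels of loop 22 had 122 and 103 counts in NPC, 366 and 354 in 2i, and 261 and 286 in serum, with a log2 fold change of -0.99 (SE 0.25, edgeR adjusted p = 0.012). The call on that pair ended without 2i replicate 1 or NPC replicate 2 (adjusted p = 0.11 and 0.072). Of the 8 tested pairs of loop 22, 5 fell and the others did not pass, among them 1 with 11 pixels at a log2 fold change of -0.10 (SE 0.22, edgeR adjusted p = 0.80), and the 8 ran from -1.20 to 0.50. The pair with 9 of the 25 pixels of loop 24 had 777 and 609 counts in NPC and 1237 and 949 in 2i, and the log2 fold change of -0.18 (SE 0.22) did not pass (edgeR adjusted p = 0.62). Among the 5 tested pairs of loop 24, 1 with 2 pixels fell (log2 fold change -0.66, SE 0.17, edgeR adjusted p = 0.013).

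Nestin loop 6, a contact over 588 to 600 kb between chr3:87765088-87777087 and chr3:88357088-88369087, rose in NPC. It had 197 and 158 counts in NPC, 106 and 126 in 2i, and 78 and 41 in serum, from 1 primer pair. Its log2 fold change of NPC over 2i was 1.14 (SE 0.32, edgeR adjusted p = 0.022). The call ended with plain scaling (0.058) and without either 2i replicate or NPC replicate 1 (0.097 to 0.11). Nestin loop 12, between chr3:88269088-88289087 and chr3:88333088-88345087, had 2229 and 2060 counts in NPC and 2361 and 2081 in 2i, with a log2 fold change of 0.05 (SE 0.19, edgeR adjusted p = 0.89). The pair with 4 of the 5 pixels of Sox2 loop 9, with 251 and 382 counts in NPC and 172 and 265 in 2i, did not pass (0.26, SE 0.23, adjusted p = 0.50), but did with plain scaling or DESeq2 (0.87 and 0.89, adjusted p = 0.019 and 0.0082). The neighbouring window pair that holds the primer pair described above, and a pixel of loop 10, rose in NPC (log2 fold change 0.73, SE 0.19, edgeR adjusted p = 0.014). None of the tested pairs of Sox2 loops 3 and 11, Nestin loops 3 and 12, Olig1-Olig2 loop 12 and the Nanog loop passed. The pairs with most pixels of Nestin loop 3 and Olig1-Olig2 loop 12 did not reach the test, and Olig1-Olig2 loop 5 had no tested pair. In Olig1-Olig2 loop 16 the pair with most pixels did not pass, and 1 of its 4 pairs, with 2 pixels, rose (log2 fold change 1.44, SE 0.22, edgeR adjusted p = 0.00034).

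**Figure D4:**
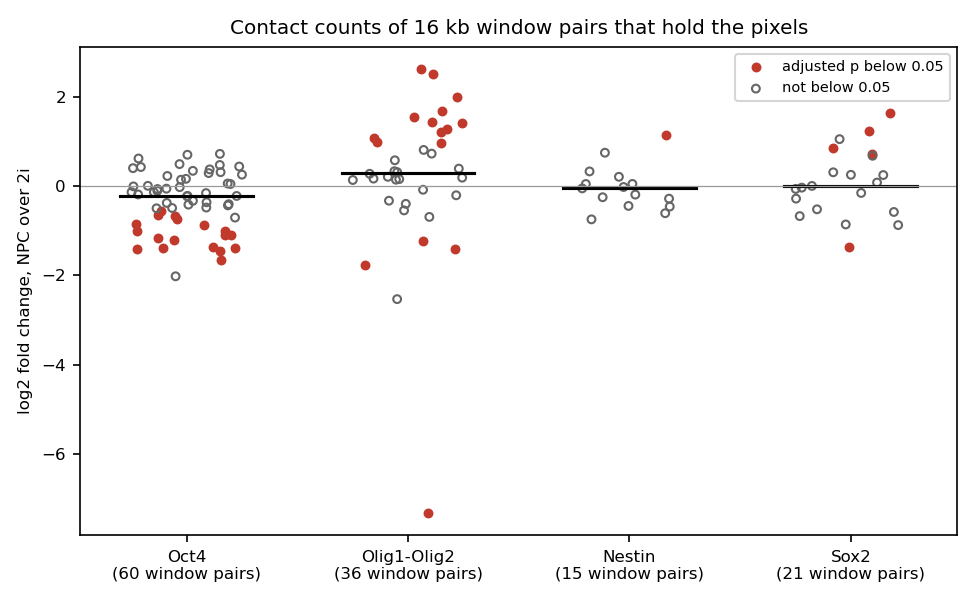
Log2 fold change of NPC over 2i for each tested 16 kb window pair that holds at least 1 of the pixels, by locus, with the median as a bar and pairs of edgeR adjusted p below 0.05 filled (2 libraries per group). At Oct4 all 18 filled points lie below 0, and at Olig1-Olig2 12 lie above and 4 below, the lowest of them with 0 counts in both NPC libraries.

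The siRNA libraries cover the 44 Sox2 pixels and come from NPCs, in which all 44 had met the threshold when untreated. With YY1 siRNA 16 and 7 of the 44 scored 26 or more, and with control siRNA 12 and 8 did. Both YY1 libraries met it for 4 pixels and both control libraries for 5, or 11.4%. Among the 869 classified Sox2 pixels the corresponding shares were 14.7% and 21.1%, and among the 197 Sox2 pixels seen in NPC only they were 10.7% and 38.1%. For the 52 seen in all conditions they were 25% and 21.2%, and for the 98 seen in 2i only 18.4% and 5.10%. The 101 seen in 2i and serum, and below 26 in untreated NPCs, had 42.6% and 61.4%. Most of the 44 pixels were thus below the threshold already with control siRNA, in cells that differ from the untreated NPCs in plating density and in the 3C protocol. Scores with control siRNA also departed from those of untreated NPCs in the other Sox2 sets, so this is not particular to the 44.

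Mean scores of the 44 pixels were 23.5 and 15.5 with YY1 siRNA and 19.7 and 14.8 with control siRNA, which average 19.5 ± 5.64 and 17.2 ± 3.48 (SD, n = 2 each). The difference of 2.27 was smaller than the spread between the YY1 libraries (two-sided exact permutation p = 0.667, where 2 libraries against 2 cannot go below 0.333). With each loop counted once the difference was -2.09 (exact p = 1). In 16 kb windows 0 of 20 tested pairs passed edgeR's test, as did 0 of all 3624 pairs (0%). At an unadjusted p below 0.05 there were 0 of the 20 and 341 of the 3624, and DESeq2 called 0 of the 20 and 20 overall. On simulated counts 51.9% of 4-fold changes were recovered in this design and 5.61% of changes of 2-fold.

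Scores ranged widely between the Sox2 loops. Sox2 loop 5, of 2 pixels, had mean scores of 43.0 and 65.7 with YY1 siRNA and 44.5 and 47.9 with control siRNA, above the threshold in all 4 libraries. Loop 2 had 37.1 and 37.5 with YY1 siRNA and 27.2 and 16.4 with control siRNA, so that the groups did not overlap. This was also so at loops 6 and 9, in the same direction, and at loop 4, in the other. For 2 libraries against 2 such a separation goes no lower than an exact permutation p of 0.333. In CPM over its primer pairs the groups of loop 2 overlapped, with 4.59 and 14.1 for YY1 siRNA and 9.42 and 14.4 for control siRNA. The CPM of loop 4 overlapped too (0.766 and 10.6 against 13.0 and 6.63, in the same order). At loop 6 the CPM kept the direction of the scores (252 and 246 against 201 and 178). At loop 9 the CPM went the other way from the scores (3.83 and 4.38 against 7.65 and 5.25). Loop 7 had 60.3 and 2.82 with YY1 siRNA and 53.5 and 73.9 with control siRNA, so the YY1 libraries lay on both sides of the threshold. Loop 9 had 12.6 and 9.29 with YY1 siRNA and 4.15 and 2.17 with control siRNA, and loop 11 stayed at 15.4 or less in all 4 libraries.

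The single primer pair whose fragments overlap the anchors of Sox2 loop 9 gave few counts in these libraries. It gave 10 and 33 counts with YY1 siRNA and 26 and 19 with control siRNA, or 3.83 and 4.38 CPM with YY1 siRNA against 7.65 and 5.25 CPM with control siRNA. In untreated NPCs it had 904 and 717 CPM. The short fragment chr3:34815519-34818355 of this pair was low as a whole, with 198 and 221 CPM with YY1 siRNA and 239.6 and 165 with control siRNA, against 3175 and 3086 in untreated NPCs. The other fragment of the pair, chr3:34794731-34815517, was lower too, with 1232 and 1561 CPM with YY1 siRNA and 1790.1 and 1986 with control siRNA, against 3520.1 and 3048 in untreated NPCs. The remaining fragment of hub 1, starting at 34820561, had 3276 and 3208 with YY1 siRNA, 3626 and 3759.6 with control siRNA and 2776 and 3762 in untreated NPCs, so on that fragment both siRNA groups lay within the range of untreated NPCs. The part of the protocol in this was not tested.

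**Figure D5:**
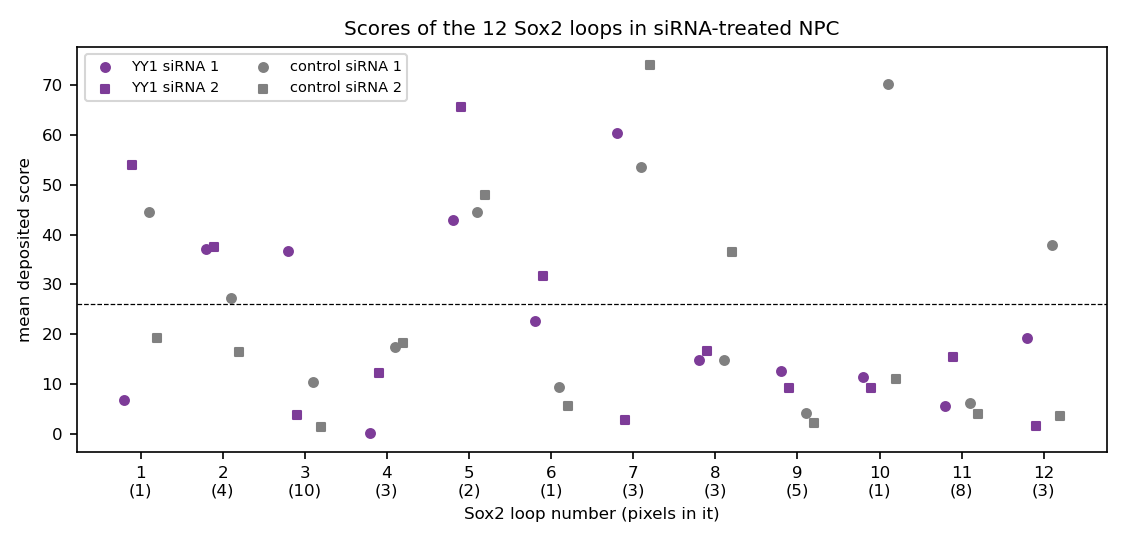
Mean deposited score of the pixels of each of the 12 Sox2 loops in NPCs treated with YY1 siRNA (purple) or control siRNA (grey), 2 libraries each, with the number of pixels in brackets and the threshold of 26 as a broken line. Loop 5 is above the line in all 4 libraries, and loops 4, 9 and 11 are below it in all 4.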

How the data were processed

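Raw 5C counts per primer pair were deposited by the authors, aligned with Bowtie to mm9 per the submitters' processing notes, no version being given. The interaction score and p-value per bin pair, and the classes, are the authors' deposited values. The model behind them is not stated in the sources used. MACS2 called the CTCF peaks on mm9, per the submitters' processing notes, and the deposited lists give the fold enrichment (a ratio) and −log10 q per peak. A peak counted for an anchor if it overlapped the 4 kb bin by at least 1 bp. In the siRNA tables bins were matched by their deposited names. A further 35 per-sample columns were not used.

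Loops were sets of member pixels that touch by a side or corner. For tests, within-locus counts of forward with reverse primers were added up for pairs of 16 kb windows, with fragments placed by midpoint, and fitted with edgeR 4.0.16 (quasi-likelihood, filterByExpr) in R 4.3.3. A loess trend of log(count + 0.5) against distance, with span 0.5, gave the offset of each library and locus. Benjamini-Hochberg adjustment ran over all pairs. The 6 untreated libraries shared a fit and the 4 siRNA libraries another, with common biological coefficients of variation of 0.202 and 0.382. Replicates were no duplicates (chi-square over degrees of freedom 17.0 or more). Another scaling, DESeq2 1.42.0 and other settings were alternatives. Python 3.11.15, pandas 2.3.3 and scipy 1.17.1 were used.

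On simulated counts for NPC against 2i (5 draws over 15092 pairs), 35.7% of 2-fold and 95.6% of 4-fold changes were found again, with 3.98% false calls. For YY1 siRNA against control siRNA (3620 pairs) the share of false calls was 4.33%.

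Named loops were the 3 with most pixels in each locus. Hubs, fragments, other Sox2 loops and strongest window pairs were chosen after their values were seen. The pixels and all lists were chosen with earlier results of these data known. The labels of the control siRNA libraries conflict, since the growth text names siRNA against YY1, and the titles were used.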

Additional observations from a re-analysis of the deposited data

How the results depend on the processing

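With score thresholds of 24 or 28, or with the mean of the 2 scores of a group, 435, 467 or 491 pixels met the rule in place of 443, and 445 to 476 did without any 1 library. All these counts are among the pixels that the authors had classified, not among all scored bin pairs. Without Oct4 hub 4, 317 remained. The number of loops lay between 65 and 80 in place of 77. The share of pixels with a CTCF peak of the 2i list at an anchor was 76.3% with anchors of 12 kb and 32.1% outside the Oct4 locus, in place of 49.7%, since wider anchors take in more peaks. Of all classified pixels 77.1% had such a peak at 12 kb, against 45.2% at 4 kb. For this share the excess of the pixels over all classified ones was thus lost. At 12 kb the serum list gave 75.8% of the pixels against 76.0% of all classified pixels, and the NPC list 65.9% against 53.9%. Peaks of the 2i list at both anchors were found for 40.4% against 32.2%. Counts of window pairs of the pixels past edgeR's test, both directions together, moved by over 1.5 times only where a library was left out or windows were 8 kb. In 32 kb windows the lower calls were 16, 10 and 20 in place of 5, 1 and 9 for NPC and 2i, 2i and NPC against serum. Without any 1 library they ranged from 41 to 72 in place of 72 for NPC and 2i against serum, from 30 to 60 in place of 54 for 2i against serum, from 46 to 67 for NPC against serum and from 24 to 38 in place of 40 for NPC against 2i. In 8 kb windows 22 passed for NPC against 2i, of 102 tested. A group left with 1 library is assumed to vary like the others.

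For YY1 siRNA against control siRNA the count stayed at 0 under every alternative run. The difference in mean score was -2.09 with 1 value per loop and 5.58 as a difference of medians, and ranged from -1.72 to 6.26 without any 1 library, so its direction is not settled. Replicate numbers did not pair the libraries, because same-numbered libraries had correlated deviations of only 0.029 to 0.13. With a replicate block the counts were 78, 64, 71, 47 and 0, in the order of NPC and 2i, 2i and NPC against serum, NPC against 2i, and YY1 against control siRNA. The data hold 2 libraries per group and many loops with only 1 or 2 primer pairs joining their anchors.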
